A study of Rattus norvegicus with 16 samples.

Results

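The genes described here encode 6 proteins with which the proximal tubule takes filtered protein back from the urine: Lrp2, Cubn, Amn, Dab2, Clcn5 and Ocrl. They were picked by name from the 32623 genes of the count table, each matched 1 row there, and all 6 passed the filter on low counts. RNA was sequenced from the kidney cortex of rats in 4 groups of 4 libraries, which were old males, young males, old females and young females. The labels give age only as old or young, give no strain, state that nothing was administered, and carry the unexplained genotype term Homo for all 16 libraries. Diabetic kidney disease is named in the title of the series, yet no library is labelled diabetic. Nothing says whether the 4 libraries of a group came from separate animals, so the p-values measure the spread between these libraries, which may be technical.

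Plasma proteins and vitamin carriers that pass the glomerulus are bound at the brush border of the proximal tubule by 2 large receptors, megalin (Lrp2) and cubilin (Cubn). Cubilin has no membrane-spanning part of its own and needs amnionless (Amn) to reach the surface and to be internalised. The adaptor disabled-2 (Dab2) links the tail of megalin to clathrin. The chloride-proton exchanger ClC-5 (Clcn5) serves the acidification of the endosome, and the lipid phosphatase Ocrl acts on the phosphoinositides that steer receptor recycling. In humans, loss of LRP2, CUBN, AMN, CLCN5 or OCRL causes inherited losses of low-molecular-weight or other protein into the urine, among them Dent disease and Lowe syndrome for the last pair. Lrp2 lies on chromosome 3 (ENSRNOG00000056184), Cubn on 17 (ENSRNOG00000029047), Amn on 6 (ENSRNOG00000009050) and Dab2 on 2 (ENSRNOG00000028930), while Clcn5 (ENSRNOG00000002862) and Ocrl (ENSRNOG00000003875) are X-linked.

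Total counts per library ran from 10827485 to 35957516 in old males and from 13416132 to 20274749 in young males. Old females had 14269100 to 17048319 and young females 11570788 to 14736236. Lrp2 was read deeply, with 16065 to 69997 counts per library, whereas Clcn5 had 122 to 594 and Ocrl 102 to 456. The chromosome Y genes Eif2s3y and Kdm5d had 0 counts in all females and contradicted no sex label. Old males were set apart on the first principal component (47.5% of the variance), with replicate 4 farthest out. Library identifiers start with DS or OP, which the labels do not explain, and OP occurs only among old libraries (3 of the 4 old males and 2 of the 4 old females). Of 7 intestine markers in the table, listed because Cubn and Amn are also active there, Fabp2, Lct and Alpi had 0 counts in every group. The 7 summed to 112 to 135 CPM in old males, 130 to 169 CPM in young males, 83.8 to 115 CPM in old females and 78.7 to 85.0 CPM in young females. Vil1, a brush border gene of kidney and intestine and the only one tested, was lower in old than in young males (-0.27) and higher in young males than in young females (0.82). In bulk tissue, fewer cells of a type and less RNA per cell cannot be told apart.

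The promoters are shown for the receptors Lrp2 and Cubn, both lower in old males than in old females, and for Amn and Dab2, both higher in young males than in young females. Each window runs from 250 bases before to 50 after the start of transcription and comes from RefSeq on build GRCr8, which is not the build named for the counts. Of the 6 genes, 5 matched by symbol, Clcn5 with 2 starts. Lrp2 is chr3:74754486-74754785 on the minus strand, Cubn chr17:81501645-81501944 minus, Amn chr6:136132317-136132616 plus and Dab2 chr2:57272050-57272349 plus. Ocrl is named only. Capitals mark a match, on either strand, to 1 of 9 strings given after the sequences.
Lrp2: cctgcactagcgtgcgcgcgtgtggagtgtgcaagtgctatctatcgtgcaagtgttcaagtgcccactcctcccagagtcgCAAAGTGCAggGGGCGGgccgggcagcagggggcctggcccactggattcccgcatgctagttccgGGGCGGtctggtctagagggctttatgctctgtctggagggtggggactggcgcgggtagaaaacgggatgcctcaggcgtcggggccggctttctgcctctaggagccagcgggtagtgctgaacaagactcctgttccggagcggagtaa
Cubn: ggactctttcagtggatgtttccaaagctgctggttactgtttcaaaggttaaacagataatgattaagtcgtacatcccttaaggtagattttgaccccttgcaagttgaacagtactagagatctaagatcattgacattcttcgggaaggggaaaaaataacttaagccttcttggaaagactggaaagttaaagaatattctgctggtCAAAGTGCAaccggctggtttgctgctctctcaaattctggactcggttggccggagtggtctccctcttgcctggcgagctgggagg
Amn: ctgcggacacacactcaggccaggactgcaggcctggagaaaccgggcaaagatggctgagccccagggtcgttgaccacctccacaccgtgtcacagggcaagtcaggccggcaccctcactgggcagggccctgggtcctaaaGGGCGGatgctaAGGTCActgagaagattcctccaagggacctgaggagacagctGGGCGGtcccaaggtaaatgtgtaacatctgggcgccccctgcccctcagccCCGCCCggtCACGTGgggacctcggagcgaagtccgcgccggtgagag
Dab2: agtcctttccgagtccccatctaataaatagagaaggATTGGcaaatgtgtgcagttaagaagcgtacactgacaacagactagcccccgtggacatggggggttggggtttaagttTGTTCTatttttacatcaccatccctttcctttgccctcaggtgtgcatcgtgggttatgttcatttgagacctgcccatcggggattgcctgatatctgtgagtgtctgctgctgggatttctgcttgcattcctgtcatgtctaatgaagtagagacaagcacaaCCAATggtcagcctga

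The searched strings were the core CAAAGT of sites for HNF4, a factor of proximal tubule identity, the core GTTAAT of sites for HNF1, the nuclear receptor core AGGTCA, the androgen and glucocorticoid receptor core AGAACA, the GC box GGGCGG, the CCAAT box, the TATA box spelled TATAAA and the E-box spelled CACGTG. The ninth, CAAAGTGCA, was added after the sequences were read because the CAAAGT of Lrp2 at position -168 and that of Cubn at -38 run on with the same 3 letters, and the shorter string lies inside it. CAAAGT occurs in 14.8% of all 33469 promoter windows and CAAAGTGCA in 0.332%. The Lrp2 window also holds GGGCGG at -157 and -102, a string found in 33.1% of windows, and that of Amn holds it 3 times, beside AGGTCA at -93 (16.2% of windows) and CACGTG at 12 (6.42%). The Dab2 window holds the AGAACA string on the opposite strand from -133 (20.7% of windows) and CCAAT at 35 and, on the opposite strand, from -213 (37.5%). GTTAAT (7.45%) and TATAAA (14.2%) were in none of the 4. A match to such short strings describes the letters only.

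The level per gene length gives the order of the 6 genes, and this order was not the same in the 4 groups. RPKM, which divides a count by gene length and by the library's total, was highest for Dab2 in old males at 141 ± 28.8, with Lrp2 at 115 ± 13.1, Amn at 56.6 ± 3.85 and Cubn at 35.4 ± 2.29 (SD, n = 4). The ranges of Dab2 (108 to 177) and Lrp2 (95.6 to 125) overlapped. Within a library, Lrp2 was above Dab2 in replicate 1 alone (117 against 108 RPKM), and the order of these neighbours was not tested. In young males Lrp2 led at 164 ± 7.17 RPKM, followed by Dab2 at 84.5 ± 7.06, Amn at 64.5 ± 7.96 and Cubn at 31.0 ± 3.08. Old females had Lrp2 at 238 ± 37.3 RPKM, Cubn at 92.9 ± 14.8, Dab2 at 71.0 ± 7.38 and Amn at 47.3 ± 7.78, and young females had 224 ± 27.0, 89.4 ± 12.5, 67.9 ± 12.1 and 45.9 ± 7.25 RPKM for the same genes in that order. By its mean, Cubn stood behind Lrp2 alone in females, and behind Lrp2, Dab2 and Amn in males. The ranges of Cubn and Dab2 overlapped in old females (73.8 to 109 and 62.4 to 79.5 RPKM) and in young females (71.0 to 99.0 and 58.2 to 84.0 RPKM). Within a library, Cubn was above Dab2 in every young female and in every old female but replicate 2 (73.8 against 74.0 RPKM). The order of these genes was not tested. Clcn5 (mean RPKM 4.73 to 5.80 over the groups) and Ocrl (1.81 to 2.97) were far below the rest in each group.

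**Figure D1:**
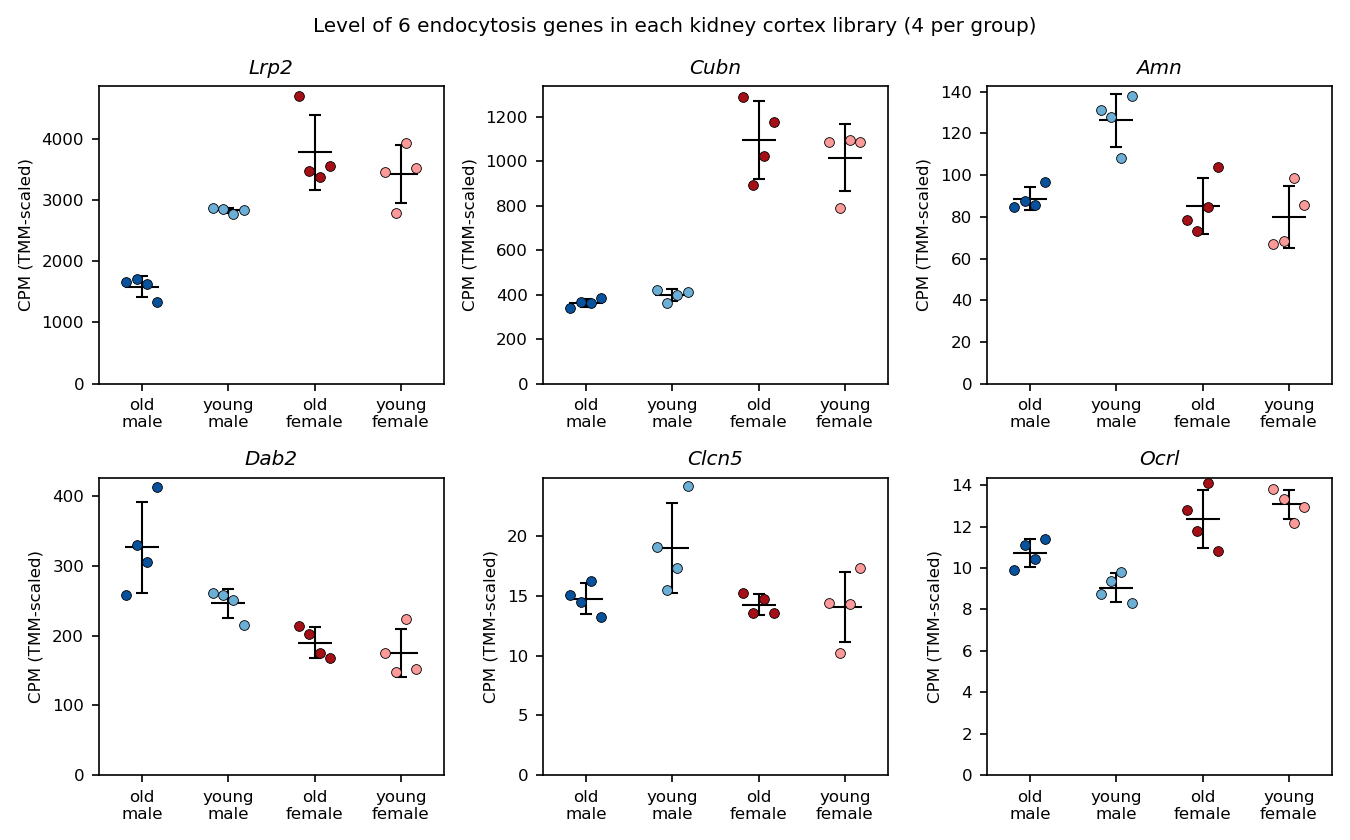
Each panel plots 1 gene, with groups on the x axis and CPM (counts scaled to a common total with TMM factors) on the y axis from 0; points are libraries, bars the mean and SD (n = 4). Cubn lies at 338 to 420 CPM in males and at 791 to 1292 CPM in females, and Lrp2 is lowest in old males.

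Megalin RNA was lower in every old male library than in any library of the other groups. In CPM, which scale counts to a common total with TMM factors, Lrp2 stood at 1667, 1709, 1631 and 1325 in old males, against 2867, 2857, 2772 and 2830 in young males. The 4 old males lay below all young males, and replicate 4 was the lowest library of all 16. The difference was -0.84 on the log2 scale (SE 0.125, adjusted p = 3.61e-05, edgeR), that is, Lrp2 fell by 44.1%. Old females had 4694, 3477, 3381 and 3555 CPM and young females 3453, 2779, 3927 and 3524 CPM, and these groups overlapped. The age difference in females was 0.14 (95% interval -0.12 to 0.40, adjusted p = 0.567). The change with age in males minus that in females was -0.98 (SE 0.176, adjusted p = 0.000375). Each Lrp2 call in males and in this contrast held in every alternative setting, with adjusted p up to 0.0482 and 0.0489 when libraries were scaled to proximal tubule markers, where the values were -0.29 and -0.43. That scaling sets the mean log2 level of the 26 markers equal across libraries. Their median in old against young males still was -0.339 (8 higher, 13 lower). In the main fit it was -0.884. Single markers ran from -2.29 to 3.33 in the main fit. The Lrp2 values under this scaling are thus relative to the marker mean. Whether Lrp2 fell beyond the median marker was not tested. Among DS libraries alone, Lrp2 was at -1.10 in old against young males. They leave 1 old male, replicate 4, the lowest Lrp2 library, which is assumed to vary like the other groups.

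For Lrp2 the sex difference passed in old rats and did not pass in young rats. Old males were below all old females, at -1.25 (SE 0.126, adjusted p = 5.31e-07), and the authors' deposited table lists -1.27 with a false discovery rate of 3.78e-17 for old males against old females. In young rats, the males (2772 to 2867 CPM) overlapped the lower end of the females (2779 to 3927 CPM), at -0.27 (95% interval -0.54 to -0.01, adjusted p = 0.107). That value passed with library totals alone (-0.45), with proximal tubule scaling (-0.76), in DS libraries alone (-0.28) and without young female replicate 2 (-0.38, adjusted p = 0.0324), the lowest of its group. Adjusted p ran from 7.6e-05 to 0.268 over the 29 alternatives. All young libraries are DS, so DS libraries alone compare the same young libraries and drop only old ones from the fit.

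Cubilin RNA differed by sex at both ages. Cubn stood at 338, 367, 364 and 383 CPM in old males, against 1292, 893, 1025 and 1176 CPM in old females. Young males had 420, 361, 399 and 411 CPM, against 1089, 791, 1096 and 1089 CPM in young females. Every male library was below every female one. The difference was -1.59 in old rats (SE 0.119, adjusted p = 2.39e-08) and -1.35 in young rats (SE 0.118, adjusted p = 2.91e-07), and both calls held in all 29 alternatives. The authors' deposited table gives -1.61 and -1.36 for the same comparisons. By age the ranges overlapped in each sex. Old against young males gave -0.13 (95% interval -0.38 to 0.11, adjusted p = 0.368), a value that turned positive with library totals alone (0.19) and passed at 0.41 with proximal tubule scaling (adjusted p = 0.00809), over a range of 0.00809 to 0.81 in the alternatives. Old against young females gave 0.11 (95% interval -0.14 to 0.36, adjusted p = 0.651).

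RNA of amnionless, the partner of cubilin, was lower in old than in young males, and higher in young males than in young females. Amn stood at 84.6, 87.8, 85.7 and 97.0 CPM in old males, against 131, 128, 108 and 138 CPM in young males. Old males lay below all young males, and the groups did not overlap. The difference was -0.51 (SE 0.124, adjusted p = 0.00259), although it was 0.04 with proximal tubule scaling, and it also lost its call with library totals alone (-0.19), with the identifier prefix as a covariate (-0.32) and in DS libraries alone (-0.39), with adjusted p from 0.000396 to 0.73. Old females had 78.5, 73.1, 84.8 and 104 CPM and young females 66.8, 68.5, 98.4 and 85.7 CPM. Young males were above all young females (0.66, SE 0.125, adjusted p = 0.000696), the opposite direction to Cubn, and this call was lost only with proximal tubule scaling (0.19, adjusted p = 0.122, over a range of 1.14e-05 to 0.122). In old rats the sexes overlapped (0.06, 95% interval -0.20 to 0.32). The change with age in males minus that in females was -0.60 (SE 0.176, adjusted p = 0.0124), and it lost its call with library totals alone (-0.23), with proximal tubule scaling (-0.07) and in DS libraries alone (-0.64), with adjusted p from 0.00274 to 0.701.

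Within a library, the ratio of 2 genes does not depend on how libraries are scaled to each other. The pairs were chosen after the values were seen, so the ratios are given as a description with no test. The RPKM ratio of Cubn to Amn was 0.625 ± 0.0218 in old males and 0.484 ± 0.0571 in young males, against 1.99 ± 0.356 in old females and 1.97 ± 0.358 in young females (SD, n = 4). The highest male library was at 0.648 and the lowest female one at 1.70. The ratio of Lrp2 to Cubn was 3.26 ± 0.476 in old males and 5.31 ± 0.387 in young males, with ranges of 2.57 to 3.66 and 5.07 to 5.89 that did not overlap, while it was 2.57 ± 0.283 in old and 2.51 ± 0.151 in young females. The ratio of Lrp2 to Dab2 was 0.849 ± 0.228 in old males, 1.95 ± 0.177 in young males, while old females had 3.35 ± 0.359 and young females 3.33 ± 0.401. All 3 ratios overlapped by age in females.

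**Figure D2:**
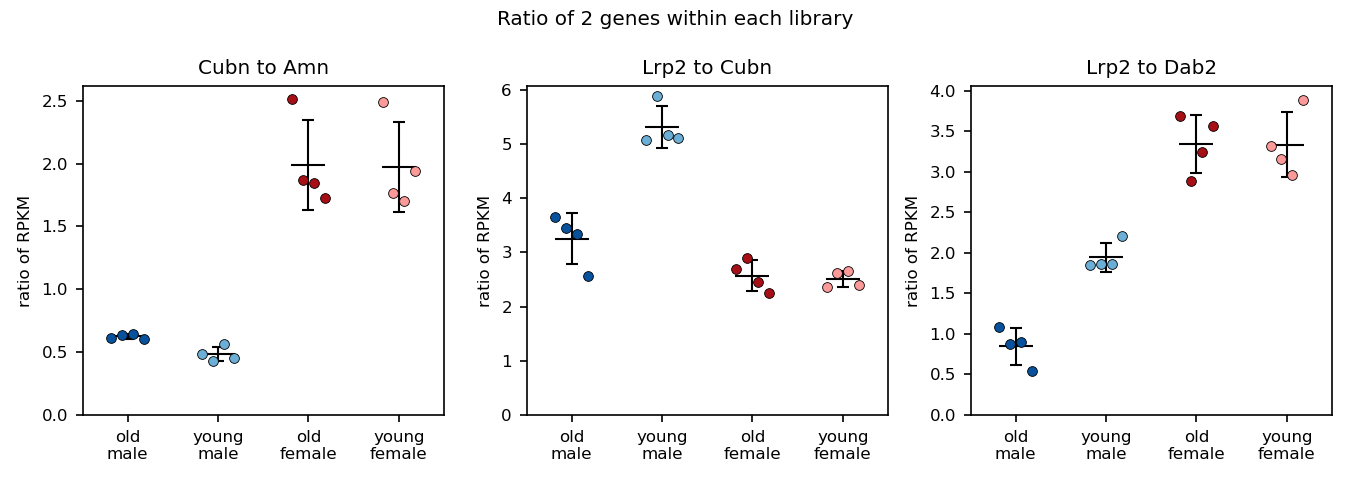
Panels plot the ratio of the RPKM of 2 genes in each library (y axis, from 0, no unit) by group on the x axis, with mean and SD (n = 4). Cubn to Amn is 0.430 to 0.648 in males and 1.70 to 2.51 in females, and Lrp2 to Dab2 is lowest in old males (0.539 to 1.09).

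The adaptor gene Dab2 averaged highest in old males. It stood at 258, 331, 305 and 413 CPM in old males, against 261, 258, 251 and 216 CPM in young males. Replicate 4 was the highest and replicate 1 of the old males overlapped the young males. The difference was 0.41 (SE 0.142, adjusted p = 0.0247). It lost its call without young male replicate 4 (0.35, adjusted p = 0.0747), without old male replicate 4 (0.28, adjusted p = 0.0968) and with the prefix as a covariate (0.45, adjusted p = 0.0526), over a range of 8.12e-06 to 0.0968. Old females had 214, 203, 175 and 168 CPM and young females 175, 148, 223 and 153 CPM. Old males were above all old females (0.78, SE 0.142, adjusted p = 0.000238), which held in all 29 alternatives. Among DS libraries alone, the 1 old male is replicate 4, the highest Dab2 library. The values there were larger, at 0.74 for Dab2 in old against young males and 1.25 in old males against old females. Young males were higher than young females with overlap (0.50, SE 0.142, adjusted p = 0.0137), a call lost with library totals alone (0.32), with proximal tubule scaling (0.02), without young female replicate 2 (0.41) and with an inner medulla score as a covariate (0.09), with adjusted p from 0.00229 to 0.915.

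Dab2 is also made by macrophages, and their markers moved in the same libraries. Of 14 listed macrophage and monocyte genes, 13 are in the table and 12 were tested. All 12 were higher in old than in young males (25.3% of all tested genes were), with a median of 1.57, against -0.00278 for all tested genes. The 13 in the table summed to 564 to 973 CPM in old males, against 213 to 245 CPM in young males, 143 to 240 CPM in old females and 181 to 282 CPM in young females, and no marker was at 0 in a group. Among the old males the sum was 564, 789, 756 and 973 CPM in replicates 1 to 4, the same order as Dab2. This order was not particular to macrophage genes. The proximal tubule injury markers had it too, with sums of 10160, 15906, 14211 and 18883 CPM. The part of macrophages in the old male value of Dab2 was not tested. In young rats, where Dab2 was higher in males than in females, 0 of the 12 were higher in males and 1 was lower (16% and 15.7% of all genes). Of 9 fibroblast and pericyte genes 5 were higher and 1 lower in old than in young males, or 66.7% called against 50% of all genes. The 10 fibroblast and pericyte genes in the table summed to 492 to 583 CPM against 248 to 287 CPM.

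The exchanger gene Clcn5 and the phosphatase gene Ocrl had the lowest levels per length of the 6, and their differences in old against young males lay near the threshold. Clcn5 was at 15.1, 14.5, 16.3 and 13.2 CPM in old males, against 19.1, 15.5, 17.3 and 24.2 CPM in young males, with overlap. The difference of -0.36 (SE 0.142, adjusted p = 0.0445) kept its call in 13 of 29 alternatives, was -0.23 without young male replicate 4, the highest library, and was 0.19 with proximal tubule scaling. Old females had 13.5 to 15.3 CPM and young females 10.2 to 17.4 CPM. Young males were higher than young females (0.43, SE 0.145, adjusted p = 0.0322), kept in 18 of 29 alternatives and at -0.06 with proximal tubule scaling. In old rats the sexes overlapped (0.05, 95% interval -0.25 to 0.36).

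Ocrl was at 9.90, 11.1, 10.4 and 11.4 CPM in old males, against 8.73, 9.38, 9.82 and 8.29 CPM in young males. The groups did not overlap, but the lowest old male and the highest young male lay close, at 9.90 and 9.82 CPM. The difference of 0.24 (SE 0.094, adjusted p = 0.0452) passed in 9 of 29 alternatives. Old females had 12.8, 11.8, 14.1 and 10.8 CPM and young females 13.8, 13.3, 12.2 and 12.9 CPM. Young males were below all young females (-0.53, SE 0.0954, adjusted p = 0.000495), which held in all 29 alternatives. In old rats the difference of -0.21 (95% interval -0.40 to -0.01) missed the threshold (adjusted p = 0.0706) and passed without old female replicate 4 (-0.27, adjusted p = 0.0264), over a range of 0.0264 to 0.956.

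Counted together, 2 of the 6 genes were higher and 3 lower in old than in young males, where 25.3% of 14390 tested genes were higher and 24.6% lower (50% in all). In old against young females 0 of 6 passed with edgeR, none was at an unadjusted p under 0.05, and DESeq2 and limma-voom called 0 as well, with 5.71% of all genes called (2.54% higher and 3.17% lower). In young males against young females 3 were higher and 2 lower (16% and 15.7% of all genes, 31.8% in all). In old males against old females 1 was higher and 2 lower (25.5% and 23.8%, 49.3% in all). The age-by-sex contrast called 0 higher and 2 lower (19.4% and 19.3%, 38.7% in all), which were Lrp2 and Amn. The others had -0.24 for Cubn, 0.29 for Dab2, -0.38 for Clcn5 and 0.32 for Ocrl, of which Dab2 passed with library totals alone (0.67), proximal tubule scaling (0.82), DS libraries alone (0.76) and the inner medulla score (0.56), and Ocrl with library totals alone (0.70), proximal tubule scaling (0.88) and without old female replicate 3 (0.39). The groups did not overlap for 3 genes in old against young males (46.3% of all genes) and for 3 each in young and in old males against females (31.1% and 44.6%).

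**Figure D3:**
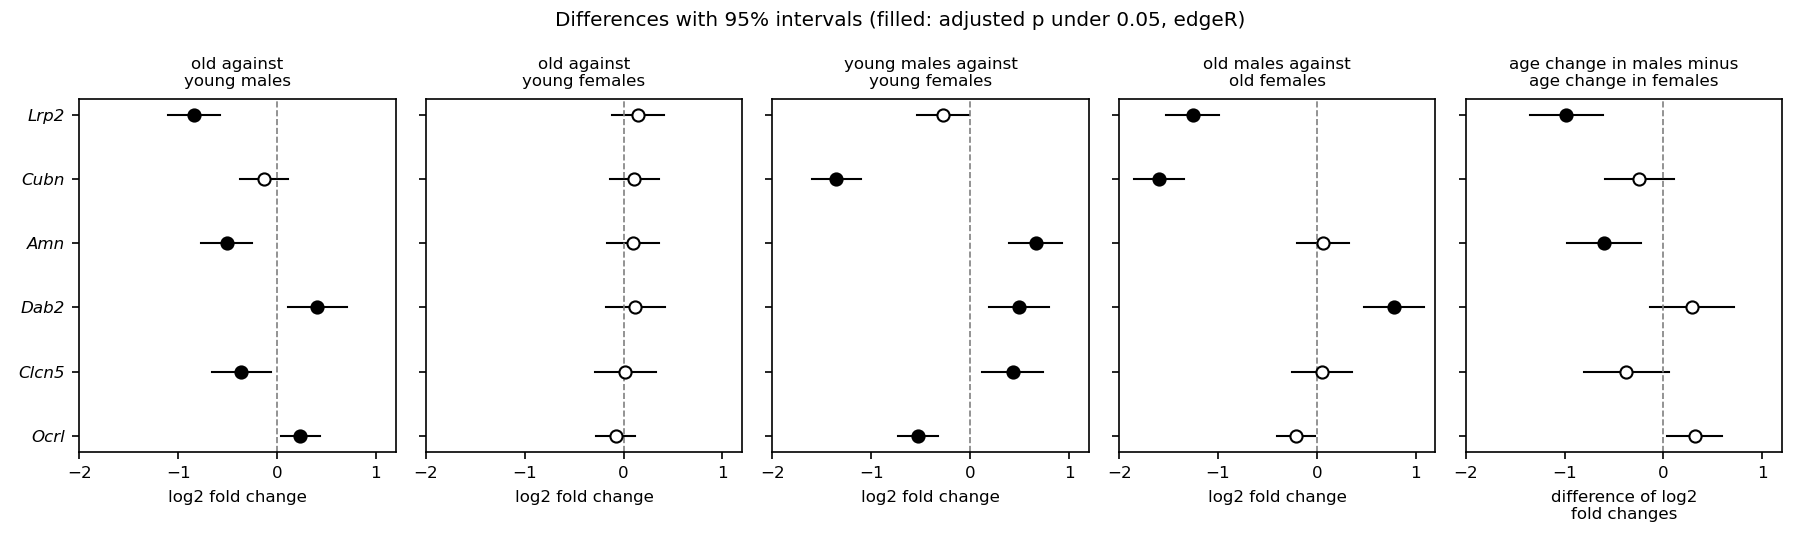
Points are log2 fold changes on the x axis for each gene (rows) in 4 comparisons, and in the last panel the difference of 2 log2 fold changes; lines are 95% intervals (n = 4 per group), and filled points passed an adjusted p under 0.05. In old against young females every interval includes 0; under proximal tubule scaling the male age values of Cubn (0.41), Amn (0.04) and Clcn5 (0.19) change sign, as does Clcn5 in young males against young females (-0.06).

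Of 8 listed genes of the chaperone and apical complex around megalin, 7 were tested. In old against young males 5 were lower and 0 higher, or 71.4% called against 50% of all genes tested, with a median of -0.75. With library totals alone 4 were lower and 2 higher (median -0.42), and with proximal tubule scaling 2 and 2 (-0.20). Lrpap1, which encodes the chaperone RAP that escorts megalin through the secretory pathway, averaged 498 ± 28.1 CPM in old males, 846 ± 43.0 CPM in young males, 991 ± 107 CPM in old females and 1034 ± 98.9 CPM in young females (SD, n = 4). For old males, its differences had the same sign as those of Lrp2, at -0.76 in old against young males (SE 0.088, adjusted p = 2.78e-06) and -0.99 in old males against old females (adjusted p = 1.48e-07). In old against young females its mean was lower, whereas Lrp2 was at 0.14. Pdzk1, a scaffold of brush border transporters, fell by 0.80 (SE 0.0986) and Slc9a3, the sodium-proton exchanger NHE3, by 0.88 (SE 0.11) on the log2 scale in old against young males. Slc9a3 was also lower in old than in young females (-0.52, adjusted p = 0.0112), where none of the 6 endocytosis genes passed.

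In old against young males, 8 of 22 clathrin coat, adaptor and scission genes were higher and 5 lower (median -0.013), or 59.1% called, against 50% of all genes tested. Epn2, an epsin that binds clathrin, was at 0.61 (SE 0.0991), Hip1 at 0.59 (SE 0.118) and Gipc1, which binds the megalin tail, at 0.32 (SE 0.0614). Of 27 endosome traffic genes 2 were higher and 9 lower (median -0.0676), or 40.7% called, with Rab38 at 1.02 (SE 0.139), Ehd4 at 0.58 (SE 0.0965) and the sorting nexin gene Snx27 at -0.31 (SE 0.0555). With library totals alone, 14 clathrin and 18 traffic genes were higher and 0 lower, so the split within these lists depends on the scaling.

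The relatives of Ocrl and Clcn5 gave further values in old against young males. Of 19 phosphoinositide enzyme genes 5 were higher and 8 lower, or 68.4% called against 50% of all genes tested (median -0.105, and 11 higher and 0 lower with library totals alone). Inpp5b, the phosphatase closest to Ocrl, averaged 10.6 ± 0.687 CPM in old males and 8.17 ± 1.23 CPM in young males (0.36, SE 0.127, adjusted p = 0.0248). Pip5k1c and Synj2 were at 0.51 and 0.61, and Pi4ka at -0.45. Of 20 endosomal chloride exchanger and proton pump genes 0 were higher and 8 lower, or 40% called (median -0.125, but 11 higher and 1 lower with library totals alone). The pump subunit genes Atp6v0d1 and Atp6v1h were at -0.51 (SE 0.0626) and -0.34 (SE 0.0599), and the exchanger gene Clcn6 at -0.52 (SE 0.113). Clcn3 (-0.11) and Clcn4 (-0.19), the closest relatives of Clcn5, did not pass.

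**Figure D4:**
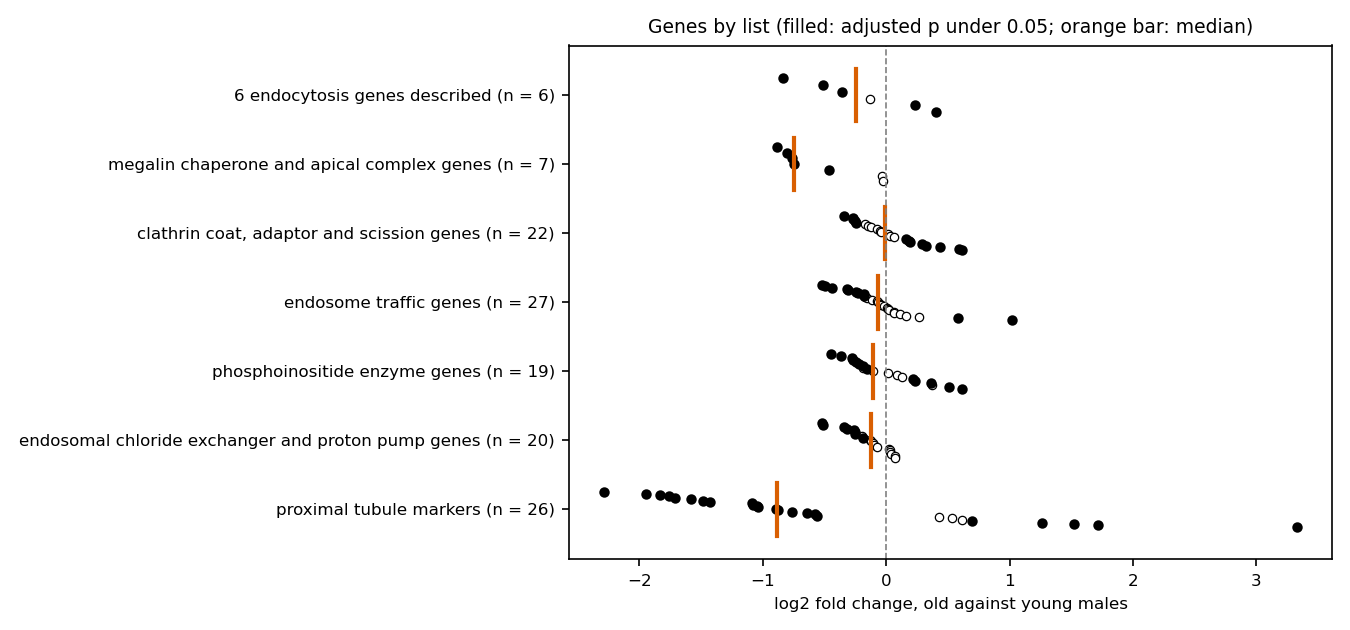
Each point is 1 tested gene, placed by its log2 fold change in old against young males (x axis) and by list (rows); filled points passed an adjusted p under 0.05 and the orange bar is the median. The apical complex genes have a median of -0.75 and the clathrin list one of -0.013; with library totals alone all values move up by about the shift of the median gene (0.323), which turns the medians of the clathrin, traffic, phosphoinositide and proton pump lists positive.

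Other markers of the proximal tubule also moved with age in males. Of 26 such genes, 18 were lower and 5 higher in old than in young males (median -0.884, 88.5% called against 50% of all genes tested). In young males against young females 11 were higher and 0 lower (median 0.537, 42.3% called against 31.8%). Their summed level was 14606 to 15728 CPM in old males, against 29710 to 36490 CPM in young males, 22426 to 25942 CPM in old females and 20535 to 24791 CPM in young females. Slc34a1, the phosphate transporter of this segment, was at 1692 ± 130 CPM in old males, 3137 ± 312 CPM in young males, 1830 ± 115 CPM in old females and 1586 ± 216 CPM in young females. Its sex difference in young rats (0.98, adjusted p = 2.58e-06) was opposite to that of Cubn. Of 11 tested injury markers 10 were higher and 0 lower in old than in young males (median 2.60, 90.9% called), and the 12 in the table summed to 10160 to 18883 CPM in old males, against 625 to 796 CPM in young males. Among them Havcr1 (KIM-1) rose to 179 ± 25 CPM in old males, against 3.77 ± 1.32 CPM in young males, and Krt20, not tested, was at 0 in the old males. The part of the injury and of the proximal tubule share in the values of the 6 genes was not tested. A score of genes listed as markers of the inner medulla and urothelium ran from 1.86 to 2.64 (mean log2 CPM) in old males, from 1.37 to 2.80 in young males and from 3.73 to 5.29 in young females. Old females split by identifier prefix, with scores of 1.99 and 1.81 for the OP pair (replicates 1 and 2) against 4.17 and 4.12 for the DS pair. Whether the score measures tissue from outside the cortex was not tested. Its part in the values of the 6 genes was not tested beyond the fits with the score as a covariate.

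Genes whose pattern over the 16 libraries was most like each member were sought among 9937 genes with at least 5 CPM on average, by Pearson's r of log2 CPM. The members and genes with placeholder-like symbols, such as those starting with LOC or RGD, were left out of the search. The libraries fall into 4 groups, so r carries mainly the group differences and is given as a description. Lrp2 was closest to Fah, an enzyme of tyrosine breakdown (r = 0.976), and to Xpnpep2, a brush border aminopeptidase (0.975). Cubn was closest to the zinc transporter Slc39a5 (0.982) and to Akap17b (0.981), and Amn to Lsm12 (0.939) and the glucose-6-phosphate transporter Slc37a4 (0.929). Dab2 was closest to Slc7a9, a cystine transporter subunit of the proximal tubule (0.951), and Plcb1 (0.95). Clcn5 was closest to Lrp6 (0.892) and Zdhhc5 (0.889), and Ocrl to Plce1 (0.922) and Zfp251 (0.911). No gene was among the 2 closest of more than 1 member.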

How the data were processed

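Per the labels' protocols, an RNeasy Micro kit gave the RNA of each sample and TruSeq Stranded mRNA reagents the libraries. The authors deposited raw read counts and RPKM for 32623 genes in 16 libraries, per the file headers. The authors also deposited pairwise lists with a log2 fold change and an adjusted p-value (false discovery rate) for each gene, restricted to absolute log2 values of at least 1. Build Rnor_6.0 and edgeR 3.8.6 are named in the submitters' processing notes. The aligner is not given in the sources used here, and neither is the use of strand in counting. Whether reads of genes that overlap on opposite strands were separated is therefore not known.

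Counts were filtered with filterByExpr (14390 genes kept), scaled with TMM factors and fitted in R 4.3.3 by the quasi-likelihood method of edgeR 4.0.16, with a mean per group over all 16 libraries, and two-sided p-values received Benjamini-Hochberg adjustment over all tested genes, with a threshold of 0.05. The fit was checked on simulated data. SE is the log2 fold change divided by the root of its F value. Comparisons were old against young in each sex, males against females at each age, and the male minus the female age change. Alternatives were RLE factors, library totals, scaling to proximal tubule markers, DESeq2 1.42.0, limma-voom (limma 3.58.1), other filters, only the 2 groups compared, the replicate block, the identifier prefix or inner medulla score as covariate, DS libraries alone, a threshold of 0.01, and each library left out. The members, the gene lists and the tests were chosen with earlier results of these data known. Named are all 6 members, up to 3 genes per list with the smallest p in old against young males, their close relatives, and the 2 genes most like each member, except that some genes under this rule are not reported here. Within-group pairs of libraries differed beyond sampling noise (chi-square per degree of freedom 6.28 to 49.5), so none was treated as a copy. Intervals are 95% intervals of the fit.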

Additional observations from a re-analysis of the deposited data

Results flagged for a closer look

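In 24 groups of 4 libraries (6 genes in 4 groups), 2 libraries stood far from the other 3, where chance would flag about 5% of groups. Lrp2 in old female replicate 1 was at 4694 CPM, against 3381 to 3555 CPM in the other old females. Cubn in young female replicate 2 was at 791 CPM, against 1089 to 1096 CPM in the other young females.

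For 2 genes the change with age in males minus that in females passed the threshold. It was -0.98 for Lrp2, which was 0.559-fold as high in old as in young males and 1.10-fold in old against young females. It was -0.60 for Amn, which was 0.702-fold in old against young males and 1.07-fold in old against young females.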

How the results depend on the processing

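Each member's value was recomputed in 29 alternatives for each pairwise comparison and 28 for the age-by-sex contrast, or 864 values in all, of which 770 kept direction and side of the threshold. The calls that held throughout were those of Lrp2 in old against young males, in old males against old females and in the age-by-sex contrast, of Cubn in both sex comparisons, of Dab2 in old males against old females and of Ocrl in young males against young females. In old against young males the median gene was at 0.323 with library totals alone and 0.544 with proximal tubule scaling. Scaling shifts all genes alike, so values relative to that median cannot test the Amn and Clcn5 calls.

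Counts of members moved as follows. In old against young males, 3 lower became 1 with library totals alone, with proximal tubule scaling, with the prefix as a covariate and in DS libraries alone, and 2 higher became 1 with DESeq2, limma-voom, no low-count filter, only the 2 groups compared, the replicate block, DS libraries alone and the inner medulla score, 0 with the prefix as a covariate and at a threshold of 0.01, and 0 to 2 when a library was left out (0 without young male replicate 4 or old male replicate 4). In young males against young females, 3 higher became 1 with library totals alone, the inner medulla score and a threshold of 0.01, 0 with proximal tubule scaling, and 1 to 3 when a library was left out. In the age-by-sex contrast, 0 higher became 2 with library totals alone and proximal tubule scaling, 1 with the inner medulla score or in DS libraries alone, and 0 to 1 with a library left out, while 2 lower became 1 with library totals alone, proximal tubule scaling, DS libraries alone and a threshold of 0.01.

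Values that changed sign were, with library totals alone, Cubn in old against young males (0.19) and in the age-by-sex contrast (0.14) and Clcn5 in old against young females (-0.036). With proximal tubule scaling they were Cubn (0.41), Amn (0.042) and Clcn5 (0.19) in old against young males, Clcn5 in young males against young females (-0.055), and Cubn (0.31) and Clcn5 (0.17) in the age-by-sex contrast. In old against young females, where no member passed, Lrp2 (-0.00086) and Clcn5 (-0.035) did so with the prefix as a covariate, Dab2 with the inner medulla score (-0.14) and in DS libraries alone (-0.024), and, with 1 library left out, Clcn5 (-0.11 to 0.14) and Amn (-0.020 to 0.21). In old males against old females Clcn5 was -0.12 in DS libraries alone, and with 1 library left out Clcn5 was -0.0040 to 0.090 and Amn -0.0094 to 0.17. The cause of these changes was not tested, other than that scalings shift all genes alike and that DS libraries alone leave 1 old male, assumed to vary like the other groups.

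Whether the replicate number pairs the libraries was not settled. Of 24 same-numbered pairs 4 had correlated deviations over 0.1 (r from -0.131 to 0.204), while pairs with other numbers ran from -0.208 to 0.0984. Of 16 libraries 8 fitted best with their own number. With the replicate block the count of members higher in old males was 1, as Ocrl was at 0.24 (adjusted p = 0.0609), and no other member's call changed. Of 4896 counts over the gene lists, 4283 stayed within 1.5 times. Calls over all genes, higher and lower, were 3644 and 3545 in old against young males, 7849 and 1329 with library totals alone and 9880 and 708 with proximal tubule scaling. In old against young females, 366 and 456 became 237 and 275 with that scaling, 108 and 86 with the inner medulla score, 161 and 98 among DS libraries only, and 131 and 177 without young female replicate 1. In young males against young females, 2308 and 2266 became 1132 and 4470 with library totals alone, 560 and 9554 with proximal tubule scaling and 987 and 838 with the inner medulla score. In old males against old females, 3664 and 3431 became 6066 and 1831 with library totals alone and 2171 and 2152 in DS libraries alone. For the age-by-sex contrast, 2786 and 2777 became 6677 and 898 with library totals alone and 7511 and 502 with proximal tubule scaling. Counts per library were lowest for Clcn5 (122 to 594) and Ocrl (102 to 456).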
